A study of Homo sapiens with 6 samples.

Results

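Transcripts of 10 enzymes that make and break down sphingolipids were followed in WPMY-1 cells, an immortalised line of stromal cells from normal human prostate, after CAVIN1 was lowered. The genes were taken by name from the 33117 rows of the deposited expression table: the serine palmitoyltransferase subunits SPTLC1, SPTLC2 and SPTLC3, the ceramide synthase CERS2, the sphingomyelin synthases SGMS1 and SGMS2, the sphingomyelinase SMPD1, the glucosylceramide synthase UGCG, the sphingosine kinase SPHK1 and the lyase SGPL1. All 10 had a row. The shCtrl group was 3 libraries of cells transduced with the empty pLKO1 lentiviral vector, and the shCAVIN1 group was 3 libraries of cells transduced with 1 hairpin against CAVIN1, which coats the small plasma membrane invaginations known as caveolae. Virus was packaged in HEK293T cells, a human kidney-derived line. Both groups were selected with puromycin and grown in DMEM with 5% fetal bovine serum, and the labels speak of stable knockdown clones without saying how many clones or transductions stand behind the 3 replicates of a group. The p-values therefore measure the spread between these libraries.

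Sphingolipids are membrane lipids built on a sphingoid base, and caveolae are rich in sphingomyelin and cholesterol. Serine palmitoyltransferase joins serine to palmitoyl-CoA in the endoplasmic reticulum, ceramide synthases add a fatty acid, and a desaturase completes ceramide, the branch point of the pathway. In the Golgi, ceramide becomes sphingomyelin or glucosylceramide, and sphingomyelinases, glycosidases and ceramidases return these lipids to sphingosine, which is phosphorylated to the signalling lipid sphingosine 1-phosphate and finally cleaved.

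CAVIN1 transcripts were lower in each shCAVIN1 library (134, 139 and 150 FPKM) than in any shCtrl library (330, 347 and 330 FPKM), with a log2 difference of -1.25 (SE 0.0586, limma adjusted p = 2.88e-05). FPKM is a level corrected for transcript length and for the mapped fragments of a library. Log2 differences are shCAVIN1 minus shCtrl on log2(FPKM + 0.5), and a gene passed the test at an adjusted p under 0.05 over all 13941 genes with a mean of at least 0.5 FPKM. Of these, 55.5% passed, 27.3% higher and 28.2% lower, with a median difference of -0.02. The libraries summed to between 758837 and 1043840 FPKM, and the depth in fragments is unknown. An abundant non-coding RNA, RN7SK, took 106000 to 151600 FPKM of 5 libraries but had a value of 0 in shCtrl replicate 2. All 10 stromal markers averaged at least 1 FPKM, with sums of 1450 to 1610 in shCtrl and 891 to 907 FPKM in shCAVIN1 libraries. Of 8 epithelial markers 3 did so (sums of 400 to 434 and 244 to 259 FPKM), most of it the keratin KRT18, and KLK3 was at 0 throughout. Of 5 leukocyte markers 1 did so, CD68 (sums of 7.29 to 8.32 and 9.66 to 10 FPKM), with CD3E at 0, and none of 5 endothelial markers did (0.26 to 0.396 and 1.15 to 1.20 FPKM). The stromal markers did not all move alike. COL1A2, COL6A1, COL6A2, FN1, THY1 and TAGLN passed the test lower and ACTA2 higher (4.94 to 9.89 FPKM), while VIM, COL1A1 and PDGFRB did not pass. The part of these marker shifts in the enzyme results was not tested.

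Among the 10 enzymes, 5 transcripts rose with the knockdown (SPTLC2, CERS2, SGMS1, UGCG and SPHK1), 2 fell (SMPD1 and SGPL1), 2 did not pass the test (SPTLC1 and SGMS2) and SPTLC3 lay below the filter on low values. The 7 that passed were 77.8% of the 9 tested, against 55.5% of all tested genes, with 55.6% higher against 27.3% and 22.2% lower against 28.2%. The median difference of the 9 was 0.24, against -0.02 over all tested genes. After rescaling to a common sum per library (TPM), 3 rose (SPTLC2, CERS2 and SGMS1) and 0 fell, where 24.5% of all tested genes passed and 64.4% of those were higher, against 49.2% before rescaling. In bulk RNA, fewer cells of a type and less RNA per cell cannot be told apart.

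**Figure D1:**
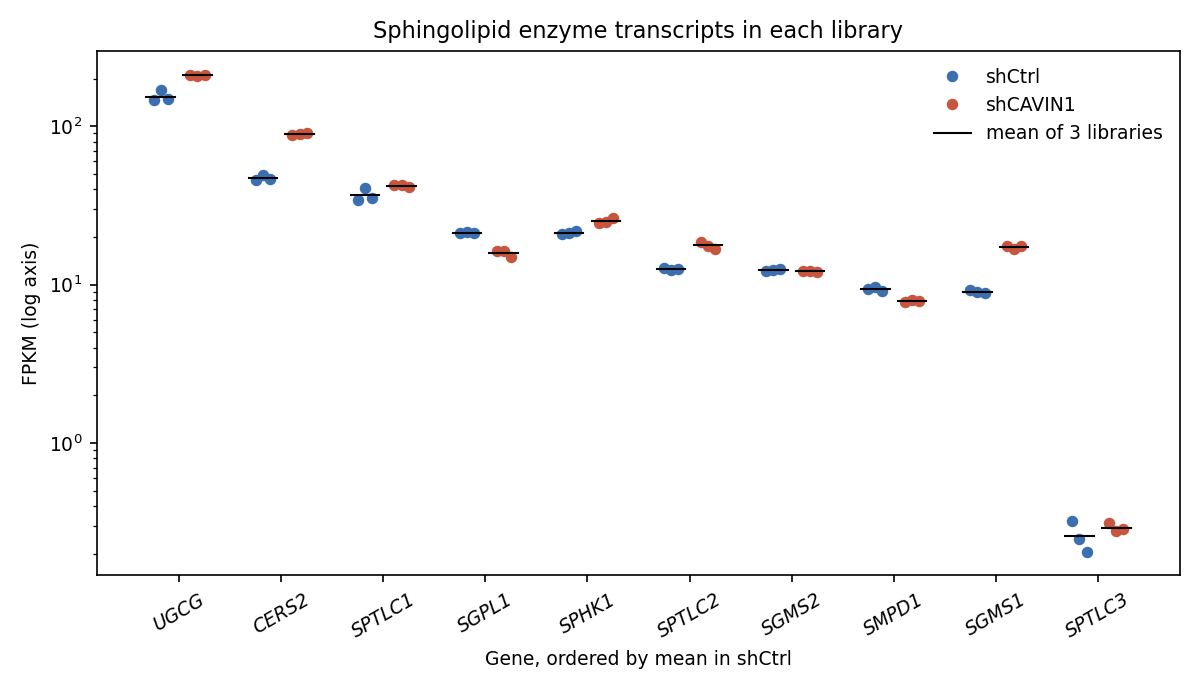
FPKM of the 10 enzyme genes in each of the 6 libraries on a log axis, ordered by the shCtrl mean; points are libraries and bars are means of 3. CERS2 and SGMS1 show the widest gaps between groups, SGMS2 and SPTLC3 overlap, and SGPL1 and SMPD1 are lower in shCAVIN1.

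Upstream sequence is shown for the pairs whose members parted: SGMS1 and SGMS2, which do the same step and of which only SGMS1 passed the test, and SPHK1 and SGPL1, which make and destroy the same lipid and passed in opposite directions. Each is the 250 bases before a start site in the RefSeq promoter table (GRCh38.p14), 5′ to 3′ on the gene's strand, with capitals marking matches to a GC box (GGGCGG or CCGCCC). SGMS1 is at chr10:50623957-50624206 (minus strand), SGMS2 at chr4:107824313-107824562 (plus strand, the first of 3 listed starts), SPHK1 at chr17:76384359-76384608 (plus strand, the second of 3 starts) and SGPL1 at chr10:70815698-70815947 (plus strand). In GENCODE 29, 27 bases of the SGMS1 window are exonic and 0 of the other windows.
SGMS1: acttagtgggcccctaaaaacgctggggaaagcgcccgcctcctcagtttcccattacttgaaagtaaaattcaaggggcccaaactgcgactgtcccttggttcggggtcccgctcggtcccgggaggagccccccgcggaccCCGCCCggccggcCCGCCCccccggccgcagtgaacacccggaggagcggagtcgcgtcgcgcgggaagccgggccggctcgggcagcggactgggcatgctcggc
SGMS2: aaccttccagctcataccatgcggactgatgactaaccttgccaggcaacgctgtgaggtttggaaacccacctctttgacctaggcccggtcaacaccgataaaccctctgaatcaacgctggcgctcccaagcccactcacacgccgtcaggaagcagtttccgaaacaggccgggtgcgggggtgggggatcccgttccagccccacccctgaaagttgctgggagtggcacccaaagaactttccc
SPHK1: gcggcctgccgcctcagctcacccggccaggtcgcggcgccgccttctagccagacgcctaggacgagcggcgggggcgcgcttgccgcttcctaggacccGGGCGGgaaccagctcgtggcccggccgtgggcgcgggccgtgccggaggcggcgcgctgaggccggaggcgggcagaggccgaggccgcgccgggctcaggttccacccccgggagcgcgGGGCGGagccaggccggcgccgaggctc
SGPL1: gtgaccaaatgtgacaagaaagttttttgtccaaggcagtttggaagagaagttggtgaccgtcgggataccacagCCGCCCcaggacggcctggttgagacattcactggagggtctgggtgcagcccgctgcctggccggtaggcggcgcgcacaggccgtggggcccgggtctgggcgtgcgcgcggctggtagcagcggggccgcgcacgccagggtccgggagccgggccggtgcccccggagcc
The SGMS1 window was 70.0% G or C with 28 CpG pairs and 2 GC boxes, and the SGMS2 window 58.8% with 12 CpG pairs and 0 GC boxes. The other SGMS2 starts had 67.2%, 28 CpG pairs and 2 GC boxes, close to SGMS1, and 38.0%, 2 CpG pairs and 0 GC boxes, so no contrast between the genes holds over their starts. The SPHK1 window was 80.8% G or C with 39 CpG pairs and 2 GC boxes, and the SGPL1 window 68.8% with 23 CpG pairs and 1 GC box. The first SPHK1 start had 72.4%, 31 CpG pairs and 1 GC box, and the third had 66.4%, 15 CpG pairs and 0 GC boxes, below SGPL1. Those other windows are not printed because more of their bases are exonic. The median over 35116 such windows was 58.0%. The table held 12 entries for 8 of the 10 genes, with none for CERS2 and SPTLC3. Searched on both strands, the GC box was in 9 of the 12 windows and in 42.6% of all windows. The CCAAT box (CCAAT) was in 2, at SPTLC2 and the third SGMS2 start, against 32.0%, and the TATA box (TATAAA) in 1, the third SGMS2 start, against 10.7%. The E-box CACGTG (6.34% of all windows) and the sterol response element TCACNCCAC (0.883%) were in 0. None of these motifs overlapped another within the printed windows.

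The pathway starts with serine palmitoyltransferase, a complex of SPTLC1 with a catalytic partner, either SPTLC2 or SPTLC3. SPTLC2 (chromosome 14, 77505997 to 77616773, minus strand, GRCh38 in GENCODE 29) measured 12.7, 12.4 and 12.5 FPKM in the shCtrl libraries (here and below in the order of replicates 1, 2 and 3) against 18.7, 17.5 and 16.8 FPKM in shCAVIN1. Each shCAVIN1 library was above each shCtrl library, and the mean rose to 141.4% of control (log2 0.48, SE 0.0484, adjusted p = 0.000395). SPTLC1 (chromosome 9, 92000087 to 92115384, minus strand), the shared subunit, was at 34.1, 40.6 and 35.2 FPKM in shCtrl and 42.4, 42.7 and 41.1 FPKM in shCAVIN1. Its groups did not overlap either, as in 64.6% of tested genes, but shCtrl replicate 2 came close to the shCAVIN1 values and the difference of 0.20 (SE 0.0712) just missed the threshold (adjusted p = 0.0521). Without shCtrl replicate 2 it passed, at 0.28 (adjusted p = 0.00162). SPTLC3 (chromosome 20, 13008979 to 13169103, plus strand), a partner that also makes shorter sphingoid bases, was barely present, at 0.323, 0.247 and 0.206 FPKM in shCtrl and 0.313, 0.278 and 0.285 FPKM in shCAVIN1. These groups overlapped, and SPTLC3 made up 1.56% to 2.49% of the FPKM of the 2 partners in any library.

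CERS2, the ceramide synthase that prefers very long acyl chains, had, with SGMS1, the largest difference of the 10 enzymes. It lies on chromosome 1 (150960583 to 150975004, minus strand). It was at 45.5, 49.2 and 46.3 FPKM in shCtrl and at 88.0, 89.9 and 90.8 FPKM in shCAVIN1. The lowest shCAVIN1 library was far above the highest shCtrl library, and the mean rose to 190.6% of control (log2 0.92, SE 0.044, adjusted p = 3.03e-05). CERS2 moved from 64.3% ± 1.52 to 76.6% ± 0.881 (SD, n = 3 each) of the summed FPKM of the 6 ceramide synthases, without overlap between groups (exact two-sided permutation p = 0.1, the smallest that 3 libraries against 3 allow), and that sum went from 73.1 ± 1.24 to 117 ± 1.09 FPKM. SETDB1, a histone methyltransferase gene on the opposite strand that overlaps CERS2, rose from 8.18 ± 0.312 to 9.87 ± 0.239 FPKM (log2 0.26, adjusted p = 0.00412). The library kit marked strand, but the strand setting used for counting is not given in the sources used here, so shared fragments cannot be assigned.

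The sphingomyelin synthases move phosphocholine onto ceramide, SGMS1 mainly in the Golgi and SGMS2 also at the plasma membrane. SGMS1 (chromosome 10, 50305586 to 50625163, minus strand) was at 9.20, 8.97 and 8.81 FPKM in shCtrl and 17.6, 16.8 and 17.5 FPKM in shCAVIN1. The groups stood far apart, and the mean rose to 192.5% of control (log2 0.91, SE 0.0413, adjusted p = 2.63e-05). Among all tested genes, 3.92% had a log2 difference at least as high. SGMS2 (chromosome 4, 107824563 to 107915047, plus strand) was at 12.1, 12.4 and 12.6 FPKM in shCtrl and 12.2, 12.3 and 12.1 FPKM in shCAVIN1. Its groups overlapped, and its difference of -0.02 had a 95% interval of -0.11 to 0.068 (adjusted p = 0.645). This interval excludes a difference of the size seen for SGMS1, although the sign of the SGMS2 value turned positive under quantile normalization (0.007), TPM (0.097) and a common sum without RN7SK (0.17). Thus SGMS2 was the more abundant of the pair in every shCtrl library and SGMS1 in every shCAVIN1 library. The log2 ratio of SGMS2 to SGMS1 was 0.44 ± 0.0557 in shCtrl and -0.49 ± 0.0478 in shCAVIN1, and SGMS1 made up 42.1% ± 0.988 and 58.7% ± 0.829 of their summed FPKM (SD, n = 3 each). Antisense genes on the opposite strand overlap SGMS1 (SGMS1-AS1 among them) and SGMS2, so shared fragments cannot be assigned for this pair either.

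SMPD1, the acid sphingomyelinase of lysosomes, works in the opposite direction and returns sphingomyelin to ceramide. SMPD1 (chromosome 11, 6390431 to 6394998, plus strand) was at 9.38, 9.61 and 9.11 FPKM in shCtrl and 7.73, 8.04 and 7.94 FPKM in shCAVIN1. All shCAVIN1 libraries were below all shCtrl libraries, and the mean fell to 84.37% of control (log2 -0.23, SE 0.0421, adjusted p = 0.00435). The call ended under TPM, at -0.12 (adjusted p = 0.623), and under a common sum without RN7SK, at -0.046 (adjusted p = 0.753). The ratio of SGMS1 to SMPD1 within a library does not depend on this scaling beyond the pseudocount. SGMS1 and SMPD1 were about level in shCtrl (log2 ratio -0.055 ± 0.035), whereas SGMS1 was the higher in each shCAVIN1 library (1.08 ± 0.0634).

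UGCG, which makes glucosylceramide and so opens the glycosphingolipid branch, was the most abundant of the 10 transcripts. UGCG (chromosome 9, 111896766 to 111935369, plus strand) was at 146, 169 and 148 FPKM in shCtrl and 211, 209 and 212 FPKM in shCAVIN1. Replicate 2 was the highest shCtrl library, as for SPTLC1 and CERS2, and still lay below every shCAVIN1 library. The mean rose to 136.7% of control (log2 0.45, SE 0.0672, adjusted p = 0.00189). Under TPM the difference was larger, at 0.58, but so was its SE (0.201), and the call ended (adjusted p = 0.063). The log2 ratio of UGCG to SGMS1 went from 4.02 ± 0.129 to 3.57 ± 0.0277. UGCG thus remained far above SGMS1 in all 6 libraries, but by a smaller margin with the knockdown. That smaller margin holds for SGMS1 taken alone. The summed FPKM of SGMS1 and SGMS2 went from 21.35 ± 0.0289 to 29.47 ± 0.408, or 138% of control, close to the 136.7% of UGCG.

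SPHK1 phosphorylates sphingosine to sphingosine 1-phosphate, and SGPL1, the lyase of the endoplasmic reticulum, cleaves that product and is the exit from the pathway. SPHK1 (chromosome 17, 76376584 to 76387860, plus strand) was at 20.9, 21.2 and 21.7 FPKM in shCtrl and 24.6, 24.9 and 26.2 FPKM in shCAVIN1, and its mean rose to 118.7% of control (log2 0.24, SE 0.0414, adjusted p = 0.00344). SGPL1 (chromosome 10, 70815961 to 70881173, plus strand) was at 21.1, 21.4 and 21.3 FPKM in shCtrl and 16.3, 16.2 and 14.9 FPKM in shCAVIN1, and its mean fell to 74.28% of control (log2 -0.42, SE 0.0468, adjusted p = 0.000612). Neither gene's groups overlapped. Both calls ended under TPM. SPHK1 was then at 0.36 (SE 0.158, adjusted p = 0.123), a larger difference with a larger SE, and SGPL1 at -0.30 (SE 0.159, adjusted p = 0.196). The call of SGPL1 also ended without RN7SK in the sum (-0.228, adjusted p = 0.0983). The pair was level in shCtrl, with a log2 ratio of SPHK1 to SGPL1 between -0.014 and 0.022, and SPHK1 was the higher in each shCAVIN1 library, at 0.58, 0.60 and 0.80. PRPSAP1, a gene on the opposite strand that overlaps the SPHK1 span, rose from 13.4 ± 0.658 to 15.5 ± 0.949 FPKM (log2 0.20, adjusted p = 0.0294), and its call was lost without shCtrl replicate 1 (adjusted p = 0.0761), shCtrl replicate 2 (0.0518), shCAVIN1 replicate 1 (0.0806) or shCAVIN1 replicate 2 (0.0632).

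**Figure D2:**
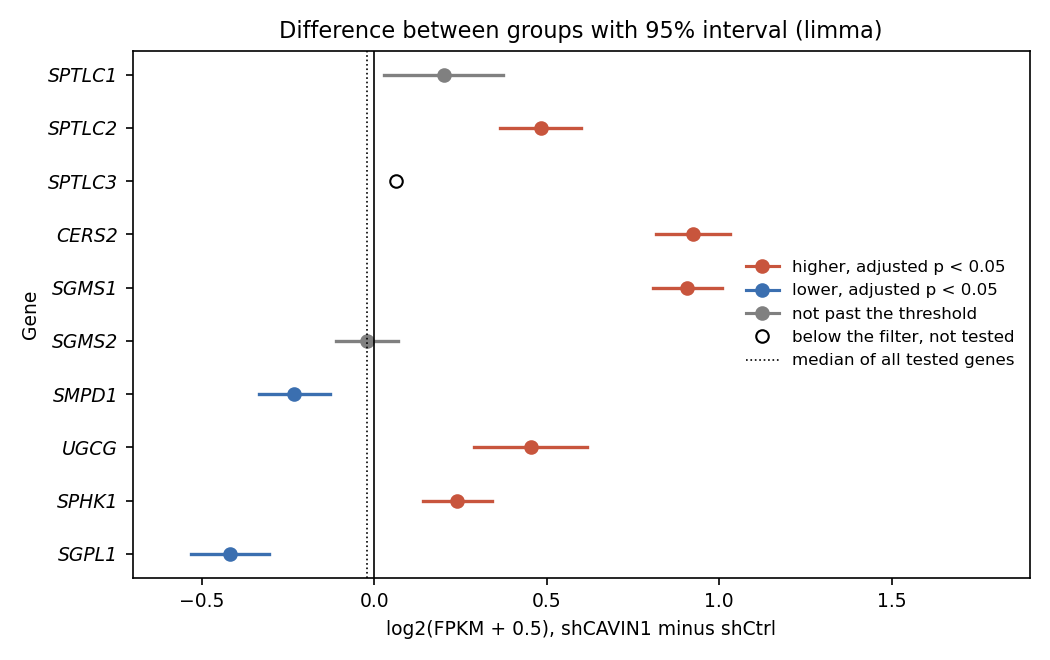
Difference between groups for the 10 enzymes on log2(FPKM + 0.5), with the 95% interval from limma; the dotted line is the median of all tested genes at -0.02. CERS2 (0.92) and SGMS1 (0.91) lie farthest to the right and SGPL1 (-0.42) farthest to the left, and SGMS2, whose sign turns under quantile normalization and 2 common-sum scalings, sits at -0.02.

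In shCtrl the order of levels was UGCG, CERS2, SPTLC1, SGPL1, SPHK1, SPTLC2, SGMS2, SMPD1, SGMS1 and SPTLC3. The neighbours SGPL1 and SPHK1, SPTLC2 and SGMS2, and SMPD1 and SGMS1 overlapped between libraries, and the other neighbours did not. In shCAVIN1 the order was UGCG, CERS2, SPTLC1, SPHK1, SPTLC2, SGMS1, SGPL1, SGMS2, SMPD1 and SPTLC3, with overlap between SPTLC2 and SGMS1 alone. SGMS1 moved from rank 9 to rank 6 of the 10, and SGPL1 from rank 4 to rank 7. Among all tested genes SGMS1 moved from percentile 50 to 68.6 and SGPL1 from 73.4 to 66.1, while UGCG was at 96.1 and 97.0.

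Of 8 ratios between enzymes computed within libraries, 7 did not overlap between the groups, each with an exact two-sided permutation p of 0.1 (0.114 adjusted over the 8), the smallest that the design allows. Of all tested genes 64.6% did not overlap taken singly, and ratios of other gene pairs were not computed. Beside those above, CERS2 to SPTLC1 went from 0.36 ± 0.076 to 1.08 ± 0.0455, and SPTLC2 to SPTLC1 from -1.51 ± 0.149 to -1.23 ± 0.0577. SPTLC3 to SPTLC2 went from -4.10 ± 0.102 to -4.52 ± 0.0483. SPTLC3 lay below the added 0.5 FPKM in every library, so this ratio mostly follows SPTLC2. Without that addition, the SPTLC3 share of the 2 partners overlapped between groups (2.03% ± 0.436 and 1.62% ± 0.0557, exact two-sided permutation p = 0.3). The ratio of SPHK1 to SPHK2, the second sphingosine kinase, overlapped (2.05 ± 0.104 and 2.11 ± 0.0733, p = 0.6 by the same exact test). SPHK2 itself rose from 4.78 ± 0.319 to 5.44 ± 0.105 FPKM (log2 0.17, adjusted p = 0.0442), a call lost under 10 of 17 alternatives, among them without shCtrl replicate 2, without shCtrl replicate 3 and without any one shCAVIN1 library (adjusted p of 0.0788, 0.117 and 0.0858 to 0.127).

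**Figure D3:**
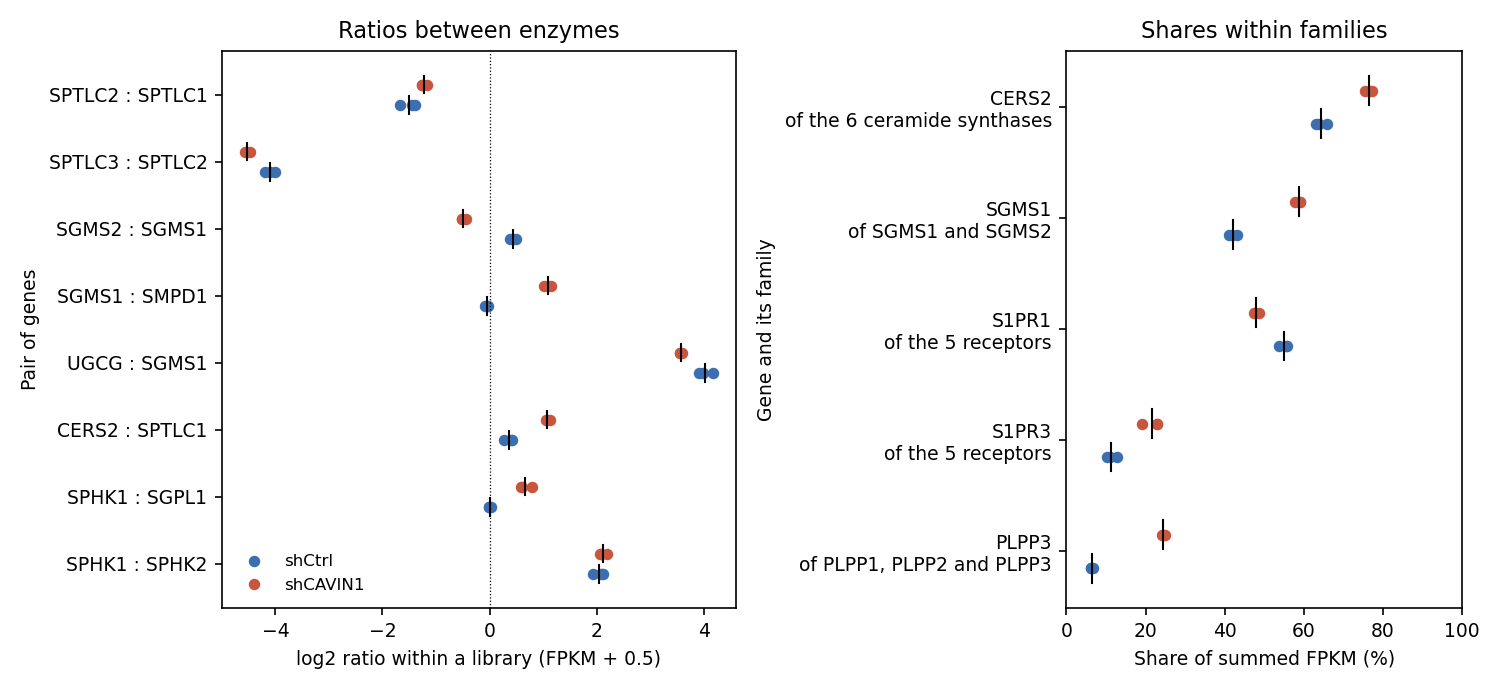
Left, log2 ratios between enzymes within each library on FPKM + 0.5; right, the share of a gene in the summed FPKM of its family, in percent; points are libraries and bars are means of 3. The ratio of SGMS2 to SGMS1 lies above 0 in shCtrl and below 0 in shCAVIN1, SPHK1 to SPHK2 overlaps, and PLPP3 moves from 6.36% to 24.5% of its family.

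In a wider list of 74 sphingolipid genes, the 10 enzymes included, 61 were tested, 24 rose and 19 fell. That is 70.5% past the test against 55.5% of all tested genes, with a median difference of 0.02, so the list split between directions. Under TPM 16 rose and 2 fell, and rescaling to a common sum without RN7SK gave 27 and 7. Over all tested genes 24.5% passed under TPM, 64.4% of them higher, and 43.1% without RN7SK, 74.2% of them higher. Among the 8 genes of serine palmitoyltransferase and its regulators, 6 were tested, 2 rose and 1 fell (50% past the test). The small activating subunit SPTSSA rose from 9.04 ± 0.336 to 12.6 ± 0.301 FPKM (log2 0.46), as SPTLC2 did, and ORMDL3, one of the inhibitory ORMDL proteins, fell from 42.4 ± 3.68 to 33.8 ± 0.942 FPKM (log2 -0.32). Genes named in the accounts of these roles beyond the rule stated with the processing, such as ORMDL3, were chosen after their values were seen.

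Ceramide formation had 7 tested genes, of which 4 rose and 2 fell (85.7% past the test, against 55.5% of all tested genes). The desaturase DEGS1, which completes ceramide, rose from 58.4 ± 5.87 to 95.4 ± 3.18 FPKM (log2 0.71, adjusted p = 0.000537), and the ceramide synthases CERS4 and CERS1 rose to 155.1% and 149.9% of control beside CERS2. CERS1 shares its locus with GDF1, so its value is uncertain. The reductase KDSR, the step after serine palmitoyltransferase, fell to 80.97% of control. COL4A3BP (also CERT1), which carries ceramide to the Golgi for sphingomyelin synthesis, fell from 6.82 ± 0.536 to 5.26 ± 0.354 FPKM (log2 -0.35, adjusted p = 0.00916), the 1 of 3 transfer proteins to pass. SAMD8, the relative of the sphingomyelin synthases that makes ceramide phosphoethanolamine, fell to 77.25% of control. Of 6 tested genes of sphingomyelinases and sphingomyelinase-like proteins 1 rose and 3 fell (66.7% past the test). Those that fell were SMPD1, SMPD4 (82.22% of control) and the sphingomyelinase-like SMPDL3B (59.23% of control, log2 -0.54).

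In glycosphingolipid synthesis, UGCG was the 1 of 7 tested genes that rose, and 3 fell (57.1% past the test, against 55.5% of all tested genes). ST3GAL5, the sialyltransferase that makes the ganglioside GM3, stood at 5.52, 5.65 and 5.60 FPKM in shCtrl and at 1.82, 1.77 and 1.96 FPKM in shCAVIN1. No library of a group came near the other group, and the fall to 33.08% of control (log2 -1.38, SE 0.0543, adjusted p = 1.77e-05) was the deepest log2 difference among the 61 tested genes. B4GALNT1, which starts the complex gangliosides, fell to 71.05% of control. Of 12 tested genes of glycosphingolipid breakdown 4 rose and 4 fell (66.7% past the test). The alpha-galactosidase GLA, the saposin precursor PSAP and the plasma membrane sialidase NEU3 fell to 63.57%, 64.91% and 49.33% of control. Of 4 tested ceramidases and the ceramide kinase, the acid ceramidase ASAH1 rose to 168.1% and ACER2 to 158.9% of control, and the alkaline ceramidase ACER3 fell to 65.58%.

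All 8 tested genes of sphingosine 1-phosphate formation and breakdown passed the test, 6 higher and 2 lower, where 27.3% of all tested genes were higher and 28.2% lower. Under TPM only SGPP1 and PLPP3 of the 8 passed, both higher, where 24.5% of all tested genes passed. PLPP3, a cell-surface lipid phosphatase that acts on sphingosine 1-phosphate among other lipids, was at 1.10, 1.04 and 1.06 FPKM in shCtrl and 4.98, 4.93 and 5.08 FPKM in shCAVIN1. The rise to 468.2% of control (log2 1.81, SE 0.0534, adjusted p = 7.49e-06) was the largest log2 difference among the 61 tested genes. Its relatives differed: PLPP1 fell to 84.27% and PLPP2 rose to 122.4% of control, so that PLPP3 went from 6.36% ± 0.265 to 24.5% ± 0.373 of their summed FPKM. The phosphatase SGPP1, which returns sphingosine 1-phosphate to sphingosine, rose to 153.5% of control, and ALDH3A2, which oxidises a product of the SGPL1 reaction, rose to 121.9%. Of 5 tested genes of export and receptors 3 rose and 1 fell (80% past the test, against 55.5% of all tested genes). The receptors S1PR2 and S1PR3 rose from 2.05 ± 0.277 to 4.21 ± 0.581 FPKM (log2 0.89) and from 1.64 ± 0.151 to 4.36 ± 0.386 FPKM (log2 1.18), S1PR1 rose to 121.9% of control, and S1PR5 fell to 65.47%. S1PR1 remained the most abundant receptor, but its share of the 5 receptors went from 55.0% ± 1.01 to 48.0% ± 0.65 and that of S1PR3 from 11.3% ± 1.29 to 21.6% ± 2.25.

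Of the genes named from the wider list, these calls ended under TPM: ORMDL3, KDSR, COL4A3BP, SAMD8, SMPD4, SMPDL3B, B4GALNT1, GLA, PSAP, ACER3, SPHK2, PLPP1, PLPP2, ALDH3A2, S1PR1, S1PR5 and the overlapping genes SETDB1 and PRPSAP1. The PLPP2 call was lost as well on leaving out shCAVIN1 replicate 1 (adjusted p = 0.0609) or replicate 3 (0.0629).

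**Figure D4:**
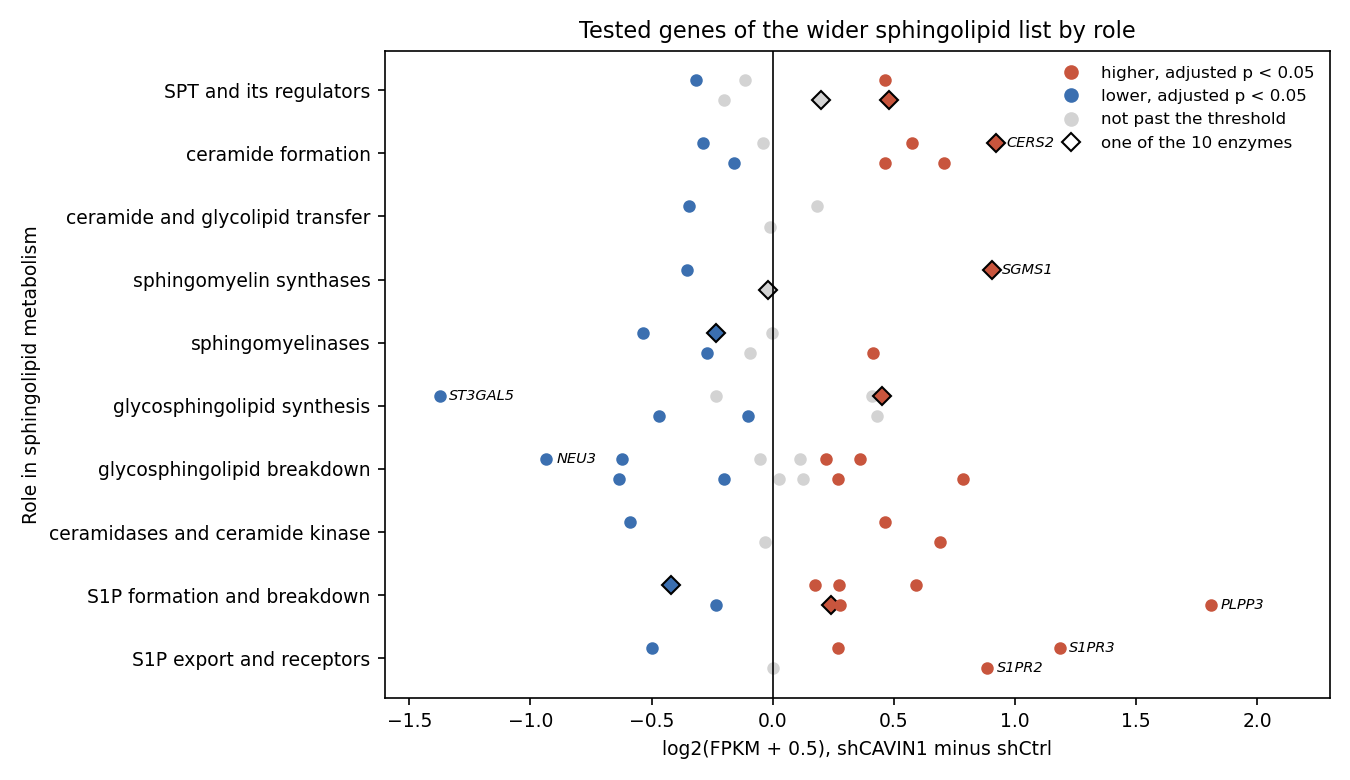
Difference between groups on log2(FPKM + 0.5) for the 61 tested genes of the wider sphingolipid list, by role; diamonds are 9 of the 10 enzymes, and colours give the limma call. PLPP3 (1.81) and ST3GAL5 (-1.38) are the extremes. The genes of sphingosine 1-phosphate formation and breakdown hold 6 higher and 2 lower calls (27.3% and 28.2% of all tested genes). Of these, the higher calls of SGPP1 and PLPP3 alone remain under TPM, where 24.5% of all tested genes passed.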

How the data were processed

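RNA sequencing of total RNA was analysed from 6 libraries, 3 per group. The authors deposited 1 table of FPKM values. The submitters' processing notes name TopHat, TopHat2 2.2.5, CASAVA and bcl2fastq 2.17.1.14, with GRCh38 as the build. Which quantifier, annotation or strand setting was used is not given in the sources used here. FPKM divides by mapped fragments, so very abundant RNAs can lower the other values in a library. Which fragments entered the divisor here is not given either. No count model or counting interval was possible.

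Genes with a mean of at least 0.5 FPKM were tested with limma 3.58.1 under R 4.3.3, on log2(FPKM + 0.5) values (group as the only term, trended variances, Benjamini-Hochberg adjustment over all tested genes). All adjusted p-values of single genes come from this fit. Exact permutation tests over libraries were used for ratios and shares. Shares were chosen after the values were seen. The enzymes, the wider list and the tests were chosen with earlier results of these data known. From the wider list, genes were named that passed with a log2 difference of at least 0.5 in size, or else the one with the lowest adjusted p in a role. A result for 1 gene of that list is not reported here. PLPP1 to PLPP3 are listed under the older PPAP2 symbols and CAVIN1 as PTRF. The fit was tested on simulated data. Alternatives were the pseudocount, the filter, 3 scalings, robust variances, leaving out each library and a replicate block, with 2 more scalings added after seeing the data (protein-coding genes alone and without RN7SK). Promoter sequences are from RefSeq and gene positions from GENCODE 29.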

Additional observations from a re-analysis of the deposited data

How the results depend on the processing

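CAVIN1, SPTLC2, CERS2 and SGMS1 kept their direction and passed under all 17 alternatives, with log2 ranges of -1.30 to -1.05, 0.44 to 0.68, 0.88 to 1.12 and 0.87 to 1.11. Rescaling to TPM gave 2199 higher and 1213 lower among all tested genes (3807 and 3927 in the main test), 3 and 0 among the 10 enzymes (5 and 2) and 2 lower in the wider list (19). It ended the calls of SMPD1 (-0.117), UGCG (0.576), SPHK1 (0.363) and SGPL1 (-0.30), and turned SGMS2 to 0.097. Rescaling without RN7SK, added after seeing the data, gave 1552 lower over all genes (74.2% of the calls higher), 0 lower enzymes and 7 lower in the wider list, with SMPD1 at -0.046, SGPL1 at -0.228 and SGMS2 at 0.17. The median difference over the tested genes was -0.02, but 0.092 under TPM and 0.162 without RN7SK. Scaling to protein-coding genes alone kept all 7 enzyme calls. SPTLC1 passed under median-of-ratios scaling (0.212), quantile normalization (0.148), robust variances (0.201), protein-coding scaling (0.213) and without RN7SK (0.397), and lay between 0.151 and 0.277 with 1 library left out. SGMS2 was at 0.007 under quantile normalization. The causes were not tested. The group differences of the ratios between enzymes kept their sign under all 10 alternatives each. For ratios without overlap between groups, leaving out 1 library could not turn the sign. Neither could the replicate block, which leaves the difference unchanged.

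Same-numbered libraries of the groups did not deviate together (r of 0.094, 0.071 and -0.028), so the replicate numbers were not taken as pairs. With the replicate number as a block, 3511 genes were higher and 3656 lower, 5 and 2 of the enzymes and 23 and 18 of the wider list, and of the other named genes the block ended the calls of SPHK2 (adjusted p = 0.0737) and PRPSAP1 (0.0749). Not every library correlated best with its own number.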

Other observations

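Of the 74 listed genes 13 lay below the filter and were not tested. Among them SPTSSB, the other small subunit of serine palmitoyltransferase, was listed at 0 in shCtrl replicate 1 and at 0.0129 and 0.0374 FPKM in replicates 2 and 3, while the shCAVIN1 values were 0.27, 0.284 and 0.224 FPKM. SGPP2, the second phosphatase of sphingosine 1-phosphate, was at 0.645, 0.386 and 0.614 FPKM in shCtrl and 0.34, 0.283 and 0.31 FPKM in shCAVIN1, without overlap. CERS3, a ceramide synthase of skin, was listed at 0 in 5 of 6 libraries, and ENPP7, the intestinal sphingomyelinase, in all 6.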
